A study of Mus musculus with 6 samples.

Results

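The genes described here are 36 mouse genes of autophagy and the lysosome, set by a list of names; no measured value enters the rule, but the list was drawn up with earlier results of these data known. The list holds 20 genes that build the autophagosome or select its cargo, and 16 genes of the lysosome, 6 of which encode hydrolases. A probe was taken if its transcript accession belongs to a listed gene. By that rule 34 of the 36 genes had a tested probe, with 55 probes among 26248 tested, and they stand beside 13675 named genes in all. Atg9a and Gabarapl2 had none and are not described further.

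RNA was measured in dorsal root ganglia, which hold the cell bodies of sensory neurons with their satellite glia and Schwann cells, at postnatal day 4. The tissue came from 3 dt27J mice and 3 wild-type (WT) littermates on the C57BL/6 background. The dt27J mutation lies in Dst, which encodes the cytoskeletal linker protein dystonin and whose disruption leads to degeneration of sensory neurons in mice, and the series title places this age before the phenotype. The animals belong to 2 litters and each gave total RNA for 1 single-colour Agilent array, so the p-values measure the spread among these animals. The labels carry 2 dates, with dt27J 1, dt27J 2, WT 1 and WT 2 at the first and dt27J 3 and WT 3 at the second, and each date is also 1 slide. What part of Dst the allele alters, and whether a date is a litter, are not given in the sources used here.

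Autophagy encloses protein and organelles in a membrane sac, the autophagosome, which fuses with lysosomes that digest its content. The ULK kinase complex and the Beclin 1 lipid kinase complex start the sac, a ubiquitin-like conjugation system attaches ATG8 proteins to its membrane, and receptors bind cargo to the ATG8 proteins. Lysosomes are kept acidic by a proton pump, hold hydrolases and their cofactors, and are supplied with new components through the transcription factor TFEB. Neurons depend on this turnover, and in cultured sensory neurons autophagosomes form far out in the axon and mature on the way to the cell body.

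The promoters of the listed genes were examined for the letters CACGTG, the core of the element through which TFEB acts on lysosomal genes. The windows run from 250 bases before to 50 bases after the transcription start and come from RefSeq, assembly GRCm38.p6. Of the 36 genes 29 were matched, with 33 windows. CACGTG, which is its own reverse complement, was found in 10 of the 33 windows (30.3%), against 2349 of 32851 windows of all genes (7.15%). The longer TCACGTGA, also its own reverse complement and always overlapping a CACGTG, was found in 15.2% of the windows against 0.974% of all windows. By gene, CACGTG was present in 4 of 16 autophagosome genes (25%) and in 6 of 13 lysosome genes (46.2%), against 2187 of all 27025 genes (8.09%). Shown here are the 120 bases before the start of 4 genes that hold it, chosen to cover a lysosomal membrane protein, a lysosomal channel, a hydrolase and an autophagy enzyme, 5′ to 3′ on the gene's strand with CACGTG in capitals.
Lamp1, chr8:13159041-13159160, plus strand: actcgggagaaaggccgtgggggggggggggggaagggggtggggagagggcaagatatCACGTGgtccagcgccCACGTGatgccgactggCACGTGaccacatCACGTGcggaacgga
Mcoln1, chr8:3500399-3500518, plus strand: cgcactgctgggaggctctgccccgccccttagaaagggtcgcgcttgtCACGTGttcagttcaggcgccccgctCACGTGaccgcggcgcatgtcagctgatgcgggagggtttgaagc
Ctsd, chr7:142387828-142387947, minus strand: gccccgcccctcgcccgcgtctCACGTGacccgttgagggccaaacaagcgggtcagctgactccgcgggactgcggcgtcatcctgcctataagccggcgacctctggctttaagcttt
Atg3, chr16:45158709-45158828, plus strand: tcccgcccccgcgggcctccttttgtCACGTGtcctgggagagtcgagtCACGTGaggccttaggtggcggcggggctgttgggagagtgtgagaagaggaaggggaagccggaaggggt
The Lamp1 stretch holds 4 copies, the Mcoln1 and Atg3 stretches 2 each and the Ctsd stretch 1. The other genes with the letters were Atg14, Atg5, Atg7, Atp6v0d1, Ctsa and Ctsl. The match describes the sequence and says nothing of whether a factor is bound there in these ganglia.

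A value is the log2 of the background-corrected signal minus the 75th percentile of its own array, so 0 is the level of that percentile, and a fold change is dt27J minus WT on that scale. On the 6 arrays 63.2% to 71.5% of the probes were well above background and none was saturated. Of the 55 probes of the listed genes, 54 were well above background on all 6 arrays. The 3 Dst probes, 1 of them well above background on all 6 arrays, were at 15.5% to 18.7% of WT in dt27J animals by limma (adjusted p = 0.0338, 0.0376 and 0.0454), and which of them lie in the mutated part is not given. Over all tested probes, 842 passed an adjusted p of 0.05 (Benjamini-Hochberg), which is 3.21%, with 343 higher (1.31%) and 499 lower (1.90%) in dt27J. The 16 sensory neuron markers, each well above background in both genotypes, had a median log2 fold change of −0.67 and a summed signal of 713 to 900 in dt27J against 971 to 1092 in WT, in units of the 75th percentile. In whole ganglia, fewer cells of a type and less RNA per cell cannot be told apart. Skeletal muscle markers had a median fold change of 1.78 (2.53 in the first date and 0.20 in the second), and spinal cord markers one of −2.42 (−3.71 and 0.12). The spinal cord markers Lhx5 and Slc6a5 were well above background on no dt27J array, and the summed spinal cord signal was 4.02 to 4.59 in dt27J against 4.81 to 34.3 in WT.

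Of the 55 probes, 1 passed the threshold (1.82%), against 3.21% of all tested probes. This was the brighter probe of Grn, and it was lower in dt27J. At an unadjusted p under 0.05 the count was 9 of 55 (16.4%), with 2 higher and 7 lower, against 27.7% of all tested probes. The dt27J and WT arrays did not overlap for 14 probes (25.5%), 6 higher and 8 lower, against 28.8% of all. By the brightest probe of each gene, 12 fold changes were positive and 22 negative, and their median was −0.085. The median over all named genes was −0.034, with 6475 positive and 7200 negative. The listed genes thus passed each of these limits at a share no higher than that of the array as a whole. The median size of the fold change, sign left out, was 0.31 over the 34 genes, against 0.36 over all named genes.

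**Figure D1:**
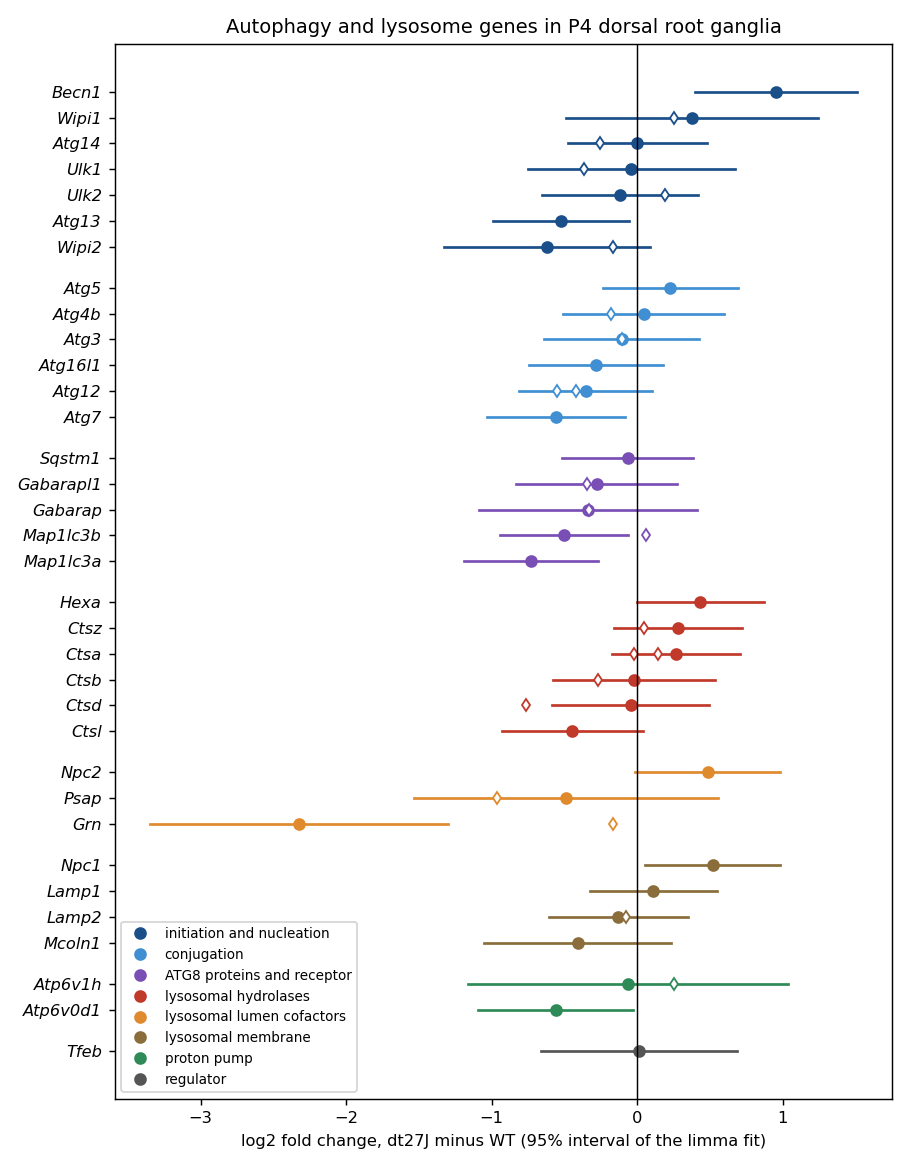
Log2 fold change (x axis, dt27J minus WT) of the 34 listed genes with a tested probe, in groups by role; filled points are the brightest probe with its 95% interval from the limma fit, and open diamonds are the other probes of the gene. Grn has the lowest value at −2.32 with its other probe at −0.17, Becn1 the highest at 0.95, and the intervals of most genes cross 0.

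Grn encodes progranulin, a glycoprotein that neurons and macrophages make and that is processed in the lysosome into peptides that assist its hydrolases. Its brighter probe had 6.02, 7.60 and 6.52 in dt27J 1, 2 and 3, against 9.02, 8.69 and 9.40 in WT 1, 2 and 3. Every dt27J array lay more than 1 log2 unit below every WT array. The fold change was −2.32 (SE 0.43), that is 20.0% of WT, with a limma adjusted p of 0.0474. It was −2.05 in the first date and −2.88 in the second. The dimmer Grn probe had 2.57, 2.30 and 2.47 in dt27J against 2.53, 2.69 and 2.61 in WT, so these groups overlapped. Its fold change was −0.17 (SE 0.19, limma adjusted p = 0.604). Both probes are annotated to the same Grn transcript. The difference between the probes in fold change was −2.16, with an exact two-sided permutation p of 0.1, the smallest that 3 arrays against 3 can give. Ctsz reached the same p with a difference of only 0.23 between its probes. The fall in Grn therefore rests on 1 of its 2 probes. That probe no longer passed without WT 1 (limma adjusted p = 0.247), without WT 2 (0.160), without dt27J 1 (0.185), without the date term (0.0586) or without the filter on dim probes (0.106), with a fold change between −2.50 and −1.95 in these fits. Over the whole array 1, 0, 0, 14 and 0 probes passed in the same fits, so few or no probes of any gene passed there.

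**Figure D2:**
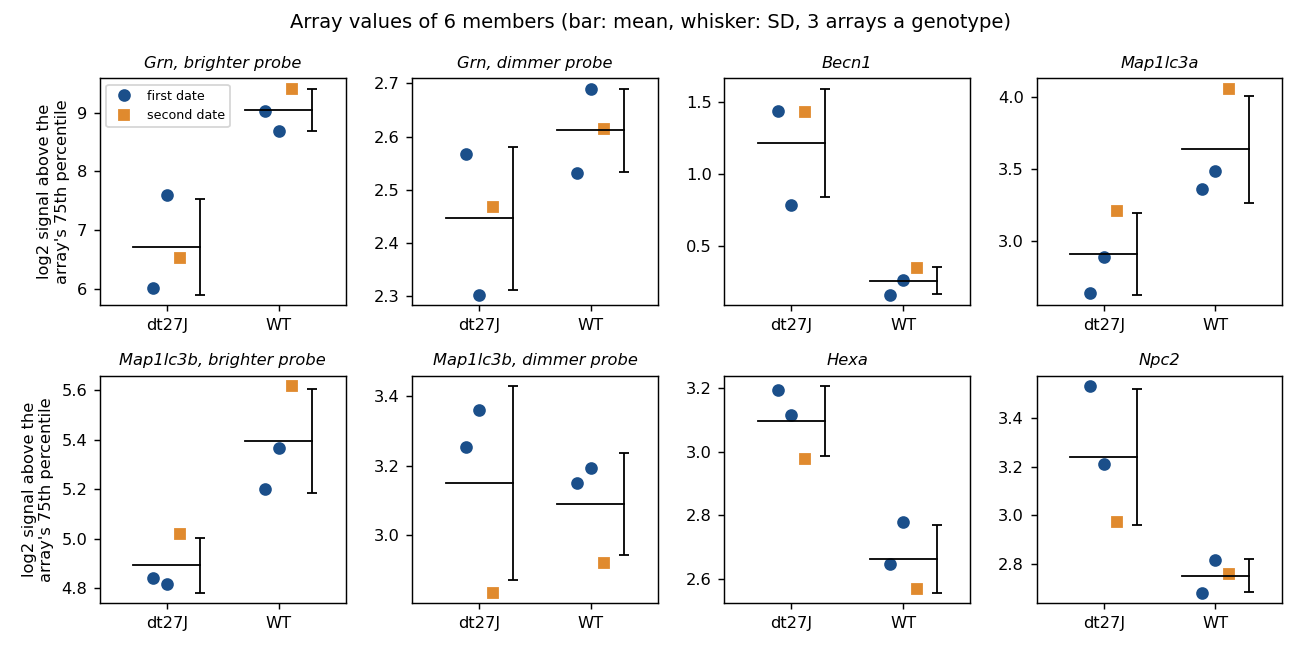
Log2 signal above the array's 75th percentile (y axis, its own scale in each panel) for 6 listed genes, with dt27J left and WT right; circles are arrays of the first date, squares of the second, bars the mean and whiskers the SD of 3 arrays. The genotypes are separate for the brighter probes of Grn and Map1lc3b and for Becn1, Map1lc3a, Hexa and Npc2, and overlap for the dimmer probes of Grn and Map1lc3b.

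The genes that start the autophagosome showed no change that passed the threshold, and their median fold change was −0.041 over 7 genes. Becn1 encodes Beclin 1, the scaffold of the lipid kinase complex, and had the highest fold change of all listed genes. It stood at 1.43, 0.78 and 1.43 in dt27J 1, 2 and 3 against 0.16, 0.27 and 0.35 in WT 1, 2 and 3. The dt27J arrays were all above the WT arrays, dt27J 2 by the least. The fold change of 0.95 (SE 0.23), or 194% of WT, missed the threshold with a limma adjusted p of 0.0662. It was 0.89 in the first date and 1.08 in the second.

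Atg13, an adaptor of the ULK kinase complex, had −0.87, −1.07 and −0.94 in dt27J against −0.46, −0.25 and −0.60 in WT. The genotypes did not overlap, and the fold change of −0.52 (SE 0.20) had a limma adjusted p of 0.149. Ulk1, a kinase of that complex, had 4.60, 4.61 and 3.95 in dt27J against 4.45, 4.03 and 4.79 in WT, with a fold change of 0.36 in the first date and −0.85 in the second. Over both dates this came to −0.041 for its brighter probe, a sign that turned under array-median scaling (0.035) and under normexp background correction (0.15), and to −0.37 for its dimmer probe. Ulk2, its paralogue, had −0.12 and 0.19 for its 2 probes, of which the first turned under normexp (0.016).

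Atg14, which directs the Beclin 1 complex to autophagosome formation, averaged 0.022 ± 0.25 in dt27J and 0.022 ± 0.042 in WT (SD, n = 3 each). Its dimmer probe had a fold change of −0.26 with an SE of 0.50. Wipi2, which binds the lipid that the complex makes and recruits the conjugation machinery, had −0.67, −1.07 and 0.43 in dt27J against −0.055, 0.31 and 0.29 in WT. The first 2 dt27J arrays lay below all WT arrays and the third above them. The fold change was −0.62 (SE 0.30, limma adjusted p = 0.229). It was −0.99 (limma adjusted p = 0.0323) without both arrays of the second date, and leaving out dt27J 3 or WT 3 alone is the same fit. In that fit 6796 of all 26248 tested probes passed. Its dimmer probe had −0.16. Wipi1, a related lipid-binding protein, had 0.38 and 0.26 for its 2 probes.

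The conjugation genes had a median fold change of −0.19 over 6 genes, and none of their 10 probes passed. Atg7, the enzyme that activates both ubiquitin-like proteins of the system, had −3.25, −3.10 and −2.80 in dt27J against −2.70, −2.39 and −2.38 in WT. The groups did not overlap, and the fold change was −0.56 (SE 0.20, limma adjusted p = 0.134). Atg12, the ubiquitin-like protein joined to Atg5, had −0.35, −0.55 and −0.42 for its 3 probes. All of these had the same sign, and the brightest kept the genotypes apart at 3.88, 4.03 and 3.75 in dt27J against 4.36, 4.14 and 4.22 in WT (limma adjusted p = 0.279). Atg16l1, which places the Atg12 and Atg5 conjugate on the membrane, had 3.54, 3.83 and 3.70 in dt27J against 4.03, 3.89 and 4.00 in WT. These too were separate, by the small margin between dt27J 2 and WT 2, and the fold change was −0.28 (limma adjusted p = 0.380). Atg5 itself had 0.23, Atg3, the enzyme that transfers ATG8 proteins to lipid, −0.11 and −0.10, and Atg4b, the protease that trims ATG8 proteins and frees them again, 0.046 and −0.18. The dimmer Atg3 probe failed the well-above-background flag on 1 dt27J array.

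The ATG8 genes and the receptor gene Sqstm1 had the lowest median of the autophagosome groups, −0.34 over 5 genes, all negative at the brightest probe except that Sqstm1 turned positive under array-median scaling and normexp. None passed the threshold. Map1lc3a, which encodes an LC3 protein of the autophagosome membrane, had 2.63, 2.88 and 3.20 in dt27J against 3.36, 3.49 and 4.06 in WT. All dt27J arrays were below all WT arrays, and within each genotype the array of the second date was the highest. The fold change was −0.73 (SE 0.19), or 60.4% of WT, with a limma adjusted p of 0.0751. It was −0.67 in the first date and −0.85 in the second.

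Map1lc3b, the LC3 gene whose protein is the usual marker of autophagosomes, had 4.84, 4.82 and 5.02 in dt27J against 5.20, 5.37 and 5.62 in WT at its brighter probe. The groups were separate, with a fold change of −0.50 (SE 0.19, limma adjusted p = 0.143). Its dimmer probe, annotated to the same transcript, had 3.26, 3.36 and 2.84 in dt27J against 3.15, 3.20 and 2.92 in WT. These overlapped, with a fold change of 0.061 (limma adjusted p = 0.853), and the exact permutation p for the difference between the probes was 0.3.

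Gabarap and Gabarapl1, of the other ATG8 branch, had fold changes of −0.34 and −0.33, and of −0.28 and −0.34, for their 2 probes each. Their genotypes overlapped at every one of these probes. The brighter Gabarap probe had 1.91, 1.20 and 2.23 in dt27J against 2.14, 2.37 and 1.84 in WT, with −0.70 in the first date and 0.39 in the second. The brighter Gabarapl1 probe had 7.69, 7.75 and 7.27 in dt27J against 8.00, 7.58 and 7.97 in WT, with the lowest value on dt27J 3. Sqstm1, the receptor that binds ubiquitin-tagged cargo and is itself degraded with it, had 6.38, 6.38 and 6.34 in dt27J against 6.43, 6.29 and 6.58 in WT. Its fold change of −0.064 turned to 0.012 under array-median scaling and to 0.079 under normexp, and its 95% interval ran from −0.51 to 0.39.

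At the brightest probe 3 of the 6 listed hydrolases had a positive fold change and 3 a negative one; the median was 0.12, and none passed. Hexa, a subunit of the enzyme that degrades gangliosides, had 3.19, 3.12 and 2.98 in dt27J against 2.65, 2.78 and 2.57 in WT. The groups were separate, with a fold change of 0.43 (SE 0.18, limma adjusted p = 0.183) and similar values in both dates, 0.44 and 0.41. Ctsz, a cathepsin with carboxypeptidase activity, had 3.38, 3.31 and 3.33 in dt27J against 2.97, 3.16 and 3.05 in WT at its brighter probe, with a fold change of 0.28, and 0.050 at the dimmer. Ctsa, the protective protein of other lysosomal enzymes, had 0.27, 0.14 and −0.022 for its 3 probes. The third and dimmest Ctsa probe had −2.98, −2.59 and −0.36 in dt27J against −2.14, −1.58 and −2.14 in WT. Here dt27J 3 stood above all other arrays and the other dt27J arrays below. The difference between the dates was the closest to the threshold among all probes of the listed genes (limma interaction, adjusted p = 0.0556), while 0.846% of all tested probes passed that test.

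Ctsl, a cysteine protease, had 6.72, 6.96 and 6.57 in dt27J against 7.35, 7.06 and 7.17 in WT. The groups did not overlap, and the fold change was −0.44 (SE 0.20, limma adjusted p = 0.210). Ctsb, a related cysteine protease, had −0.020 and −0.27 for its 2 probes, and the first turned to 0.056 under array-median scaling and 0.086 under normexp. Ctsd, the main aspartic protease of the lysosome, had 5.09, 5.32 and 4.12 in dt27J against 4.97, 5.06 and 4.63 in WT at its brighter probe. Its fold change there was 0.19 in the first date and −0.51 in the second, and −0.043 over both, with positive values under array-median scaling (0.033), normexp (0.13) and in the authors' deposited table (0.019). The dimmer Ctsd probe had 0.58, 0.52 and 1.01 in dt27J against 0.95, 1.75 and 1.70 in WT. There the fold change was −0.76 (SE 0.25, limma adjusted p = 0.116), and dt27J 3 reached just above WT 1.

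Macrophages hold many lysosomes, and their 14 markers had a median fold change of 0.46, with 0.82 in the first date and −0.13 in the second. On dt27J 1, 2 and 3 the macrophage median stood at 1.05, 0.63 and −0.24, and on WT 1, 2 and 3 at 0.034, 0.078 and −0.13, relative to the mean of the WT arrays. The hydrolase median stood at 0.26, 0.34 and −0.32 on the dt27J arrays and at 0.037, 0.11 and −0.060 on the WT arrays. Both were thus highest on dt27J 1 and 2 and lowest on dt27J 3. So was the median over all named genes. It stood at 0.018, 0.032 and −0.13 on the dt27J arrays and at −0.0021, 0.0078 and 0.011 on the WT arrays. Of the macrophage markers 13 had a positive and 1 a negative fold change, 1 (Aif1) passed the threshold, all were well above background in both genotypes, and their summed signal was 11.2 to 23.1 in dt27J against 10.9 to 11.7 in WT. The 9 fibroblast markers were all positive with a median fold change of 0.87, and stood at 1.13, 1.17 and 0.24 on the dt27J arrays against −0.060, −0.23 and 0.20 on the WT arrays. Their summed signal was 481 to 969 in dt27J against 310 to 611 in WT. The 9 endothelial markers were also all positive, with a median of 0.77, and stood at 1.15, 0.70 and 0.42 on the dt27J arrays against 0.16, 0.098 and −0.25 on the WT arrays. Their summed signal was 21.4 to 39.8 in dt27J against 16.2 to 21.4 in WT. All markers of both lists were well above background in both genotypes. The part of these cell types in the hydrolase values was not tested.

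**Figure D3:**
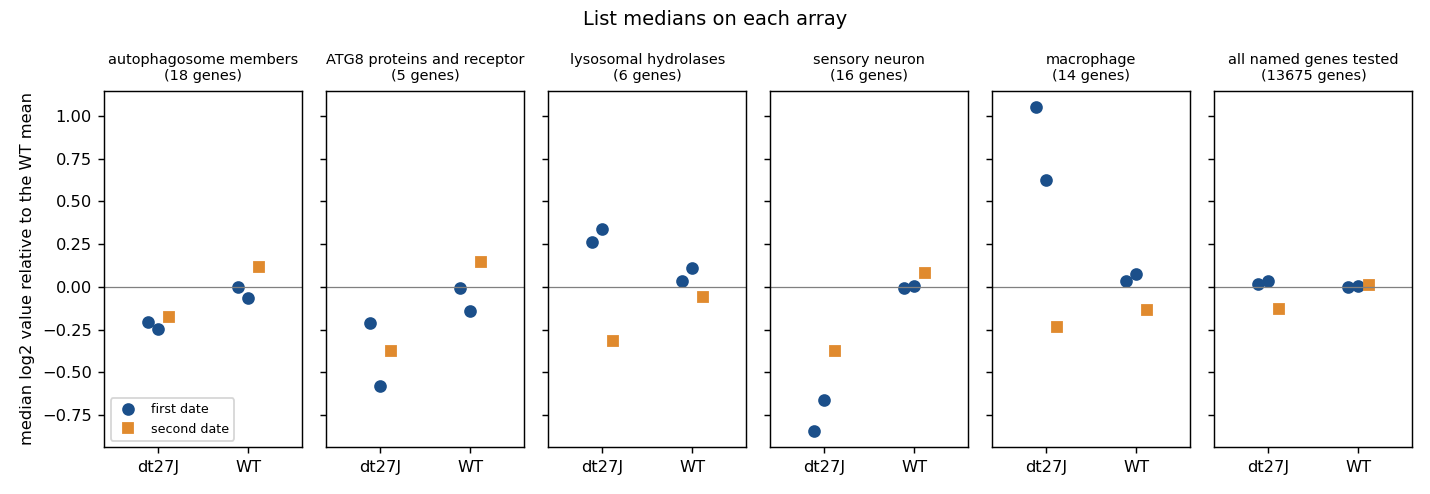
Median over the genes of a list of the log2 value on each array relative to the mean of the 3 WT arrays (y axis), with dt27J left and WT right; circles are arrays of the first date and squares of the second. The autophagosome genes lie between −0.25 and −0.17 on the dt27J arrays, and the hydrolases, the macrophage markers and all named genes are lowest on dt27J 3.

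The autophagosome genes were set against the hydrolases as the rule for the list asks. The 18 autophagosome genes had a median fold change of −0.20, with 5 positive and 13 negative, and the 6 hydrolases had 0.12, which is a difference of −0.32. The autophagosome median was −0.20, −0.25 and −0.17 on dt27J 1, 2 and 3, against −0.00013, −0.065 and 0.11 on WT 1, 2 and 3. These did not overlap, and the median fold change was −0.17 in the first date and −0.27 in the second. The 22 other autophagosome genes did overlap, at −0.050, −0.073 and −0.10 in dt27J against 0.062, −0.089 and 0.010 in WT. Lysosomal trafficking genes were separate, at −0.25, −0.15 and −0.17 against 0.040, 0.018 and −0.11. So were the other pump subunits, at −0.28, −0.24 and −0.24 against −0.0013, 0.089 and −0.066. The other cargo receptors, hydrolases, membrane and lumen genes and mTORC1 regulators overlapped. The hydrolases had 0.26 in the first date and −0.20 in the second, while all named genes had 0.025 in the first date and −0.15 in the second. Taken as autophagosome minus hydrolase on each array, the values were −0.47, −0.59 and 0.14 on the dt27J arrays, against −0.037, −0.17 and 0.17 on the WT arrays. The dt27J arrays of the first date were below all others and dt27J 3 was not. The difference of −0.32 between the median fold changes was close in size to the SD of 0.30 of these array values, which are another measure. As a difference of median fold changes it was −0.43 in the first date and −0.074 in the second. With every probe counted, the medians were −0.22 for the autophagosome genes and −0.020 for the hydrolases. The size of both medians depended on the scaling, with −0.12 and 0.20 under array-median scaling and −0.085 and 0.25 under normexp. The hydrolase median was 0.24 with array weights, 0.056 without dt27J 2, 0.076 without WT 2 and 0.26 without dt27J 3 or WT 3. The sensory neuron markers were low on the same arrays as the autophagosome genes, at −0.84, −0.66 and −0.37 on dt27J 1, 2 and 3 against −0.0074, 0.0045 and 0.080 on WT 1, 2 and 3. Of these 16 markers 15 had a negative fold change and 2 passed the threshold. Their part in the autophagosome values was not tested.

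Among the cofactors of the lysosome lumen other than Grn, Npc2, which hands cholesterol to the membrane protein Npc1, had 3.53, 3.21 and 2.97 in dt27J against 2.68, 2.82 and 2.76 in WT. Npc1, which moves that cholesterol out of the lysosome, had −0.82, −1.11 and −1.35 in dt27J against −1.44, −1.60 and −1.81 in WT. All dt27J arrays were above all WT arrays for both genes. The fold change was 0.49 (SE 0.21, limma adjusted p = 0.188) for Npc2 and 0.52 (SE 0.19, adjusted p = 0.147) for Npc1, so neither passed. Psap, the precursor of the saposins that present lipids to hydrolases, had 3.76, 2.27 and 4.01 in dt27J against 4.07, 3.71 and 3.71 in WT. The value on dt27J 2 was the lowest, and the fold change was −0.49 (SE 0.44), or 0.048 without dt27J 2. The dimmer Psap probe had 1.89, 0.16 and 3.17 in dt27J against 2.46, 2.52 and 3.12 in WT, again lowest on dt27J 2, with a fold change of −0.96 (SE 0.50, limma adjusted p = 0.264).

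Lamp1, a main glycoprotein of the lysosomal membrane, differed little, with 4.78, 4.80 and 4.86 in dt27J against 4.69, 4.76 and 4.66 in WT. The groups did not overlap, but the fold change was 0.11 with a 95% interval of −0.32 to 0.55. Lamp2, its relative that also serves autophagosome fusion and chaperone-mediated autophagy, was read by probes to 2 different transcripts. Their fold changes were −0.13 and −0.074, and the first turned to 0.016 under normexp. Mcoln1, a calcium channel of the lysosome, had 4.22, 3.99 and 3.01 in dt27J against 4.31, 4.04 and 4.10 in WT. Only dt27J 3 was clearly lower, and the fold change was −0.07 in the first date and −1.09 in the second (limma interaction, adjusted p = 0.144).

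Both proton pump genes of the list had a negative fold change at the brightest probe. Atp6v0d1, a subunit of the membrane part of the pump, had 2.00, 1.91 and 2.59 in dt27J against 2.37, 2.89 and 2.93 in WT, where dt27J 3 lay above WT 1. Its fold change was −0.56 (SE 0.22, limma adjusted p = 0.164). Atp6v1h, a subunit of the part that splits ATP, had 0.51, 1.49 and 2.56 in dt27J against 1.73, 1.74 and 1.29 in WT. The first date gave −0.73 and the second 1.28, which makes −0.064 over both, or 0.012 under array-median scaling. The dimmer Atp6v1h probe followed with −0.17, 0.48 and 2.14 in dt27J against 0.58, 0.69 and 0.41 in WT, and the difference between the dates had a limma adjusted p of 0.0671. Tfeb, the transcription factor that acts on many of these genes, had −4.65, −4.95 and −3.77 in dt27J against −5.07, −4.23 and −4.12 in WT. The groups overlapped, with a fold change of 0.015 and a 95% interval of −0.66 to 0.69.

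**Figure D4:**
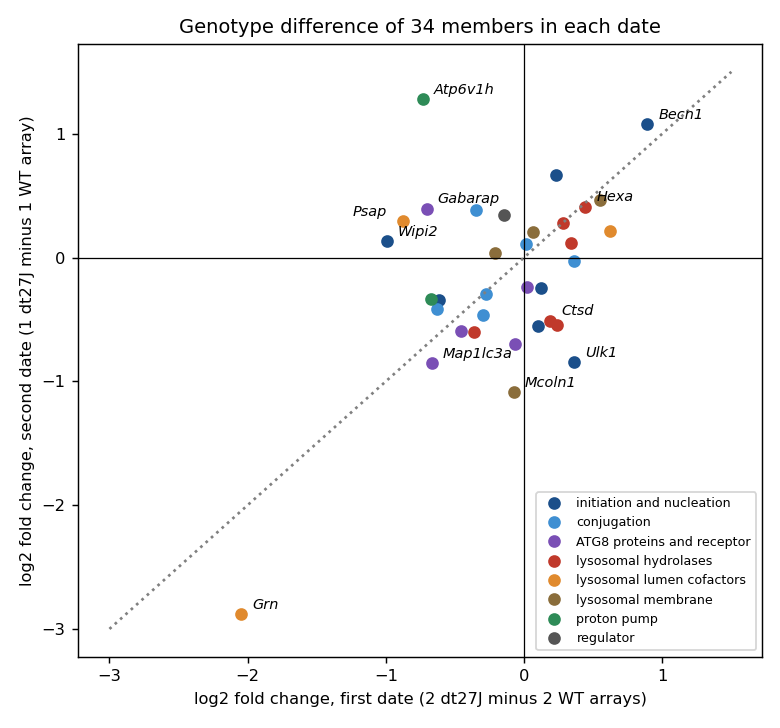
Log2 fold change (dt27J minus WT) of each of the 34 genes at its brightest probe in the first date (x axis, 2 arrays of each genotype) and in the second (y axis, 1 array of each), coloured by role, with equal values on the dotted line. Grn and Map1lc3a are negative and Becn1 is positive in both dates, while Atp6v1h is at −0.73 and 1.28.

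Across the 34 genes, 20 had the same sign in both dates (58.8%), against 7773 of the 13675 named genes (56.8%), and no probe of the 55 passed the test for a difference between the dates. Of the 19 genes with more than 1 probe, 13 had the same sign at every probe, and 3 (Grn, Ctsd and Map1lc3b) had probes that differed by more than 0.5. The 10 genes with CACGTG in the promoter had a median fold change of −0.075, from −0.56 to 0.27, and none passed. The 17 tested genes whose windows lacked it had −0.12, and 1 passed.

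A wider set of 145 other genes of the pathway was examined in the same fit, and 138 of them were tested. Their median fold change was −0.065, with 60 positive and 78 negative. At the brightest probe 3 passed the threshold (2.17%), all lower in dt27J. Of all named genes at their brightest probe 2.88% passed in either direction and 1.54% were lower. Rragd, a GTPase that carries amino acid signals to the kinase mTORC1 on the lysosome and holds TFEB family factors there, had −0.10, 0.58 and −0.51 in dt27J against 1.53, 1.47 and 1.36 in WT. Its fold change was −1.47 (SE 0.26, limma adjusted p = 0.0474), and its second probe gave −1.25 (adjusted p = 0.0474). With normexp these were −0.93 (0.0590) and −0.48 (0.151), so the second probe shrank and neither passed. With normexp and high local backgrounds replaced, a version added after seeing the data, they were −1.31 (0.0236) and −0.76 (0.0488). Atp6v0a1, a membrane subunit of the proton pump that neurons use, had 0.34, 0.36 and 1.06 in dt27J against 1.68, 2.13 and 1.85 in WT. It fell by 1.30 on the log2 scale (SE 0.25, limma adjusted p = 0.0487), while its dimmer probe had −0.22 (adjusted p = 0.610). Abca2, a lipid transporter of late endosomes and lysosomes, had −0.32, −0.47 and −0.33 in dt27J against 0.47, 0.93 and 0.77 in WT. It fell by 1.09 (SE 0.21, limma adjusted p = 0.0487), and its second probe had −1.22 (adjusted p = 0.0508). For all 3 genes, which were picked for passing, the genotypes were separate at the brightest probe. Of the 138 genes, 15 were separate with dt27J higher and 18 with dt27J lower. Of all 13675 named genes, 1849 and 2245 were. Each missed the threshold without WT 1 (adjusted p = 0.247 for each), without WT 2 (0.160 to 0.171), without dt27J 1 (0.188 to 0.192) and without dt27J 2 (0.0556 to 0.119). Over the array 1, 0, 0 and 168 probes passed in those fits. Each also missed it without the date term (0.0623 to 0.0643), with normexp (0.0590 to 0.0785) and without the filter on dim probes (0.0955 to 0.0993). Over the array 14, 384 and 0 probes passed in those fits. With backgrounds replaced all 3 passed the threshold (0.0236 to 0.0269), as did 1432 probes over the array. Atp6v0a1 and Abca2 missed it under array-median scaling (0.0521 each), and Atp6v0a1 under quantile normalization (0.0519).

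The medians of these other lists lay between −0.16 and 0.14. The other 18 pump subunits had a median of −0.12, with 4 positive and 14 negative, and 1 of them, Atp6v0a1, passed. Their median was −0.36 in the first date and −0.38 in the second, though only 7 of the 18 had the same sign in both. Atp6v0c, the subunit that forms the proton-carrying ring, had 0.54, 0.57 and 0.40 in dt27J against 1.46, 1.74 and 1.13 in WT, with a fold change of −0.94 (limma adjusted p = 0.0549). Atp6v1a, the subunit that binds and splits ATP, had −0.63. The 21 genes of TFEB family and mTORC1 control had a median of −0.099, with 7 positive and 14 negative. The 14 genes of lysosomal trafficking and fusion had −0.16, with 5 positive and 9 negative, and none passed.

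The other 35 hydrolases had a median of 0.068, with 19 positive and 16 negative and none past the threshold at the brightest probe. Those with the smallest p had opposite signs. Aga, which cleaves sugar from asparagine, had 0.49, 0.13 and −0.28 in dt27J against −0.46, −0.82 and −1.46 in WT, with a fold change of 1.03 (limma adjusted p = 0.0544). Gusb, the beta-glucuronidase, had 2.07, 1.93 and 1.52 in dt27J against 0.93, 1.10 and 0.71 in WT, with 0.93 (adjusted p = 0.0523). Lipa, the acid lipase, had −1.12, −1.40 and −1.27 in dt27J against −0.083, −0.27 and −0.47 in WT, with −0.99 (adjusted p = 0.0523). The genotypes were separate for all 3, which were picked by their p. Of the 35 hydrolases, 7 were separate with dt27J higher and 4 with dt27J lower, against 1849 and 2245 of all 13675 named genes. Over 17 alternatives to the main fit Gusb passed the threshold in 10, Lipa in 8 and Aga in 7. At the brightest probe Rragd passed in 9 of the same alternatives, Abca2 in 8 and Atp6v0a1 in 7. The fit without the second date was counted each time it recurs. At dimmer probes, Manba, the beta-mannosidase, rose by 1.16 (adjusted p = 0.0485) with 0.84 at its brighter probe (0.0610). Ids, the iduronate sulfatase, fell by 1.75 (0.0413) at the third of its 4 probes, with −0.39 at the brightest (0.334). Both dim-probe calls depended on the background correction: with normexp the Manba probe had 0.45 (adjusted p = 0.190) and the Ids probe −0.38 (0.253). With high local backgrounds replaced the Manba probe had 0.78 (0.0346) and the Ids probe −0.56 (0.105). In the authors' deposited values the Manba probe had 0.96 (0.0405) and the Ids probe −0.85 (0.0415). Both calls were lost without the date term (0.0633 for Manba and 0.0575 for Ids), without the filter on dim probes (0.0962 and 0.0936) and without WT 1 (0.247 each), WT 2 (0.160 and 0.151), dt27J 1 (0.192 and 0.177) or dt27J 2 (0.0856 and 0.0591). Over the array 0 to 168 probes passed in those fits.

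The other 22 autophagosome genes had a median of −0.16, with 9 positive and 13 negative and none past the threshold. The smallest p was that of Atg2a, a lipid transfer protein that feeds the growing sac, with −1.30, −1.20 and −0.59 in dt27J against −0.46, 0.11 and 0.11 in WT. Its 2 probes had −0.95 and −1.68 (limma adjusted p = 0.0660 and 0.0578). The 10 other cargo receptors had a median of 0.033 and none passed. Bnip3l, a receptor for mitochondria, had 2.85, 2.87 and 2.89 in dt27J against 2.39, 2.37 and 2.26 in WT, with a fold change of 0.53 (adjusted p = 0.125). The 18 other membrane and lumen genes had a median of 0.14, and Abca2 was the 1 that passed.

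**Figure D5:**
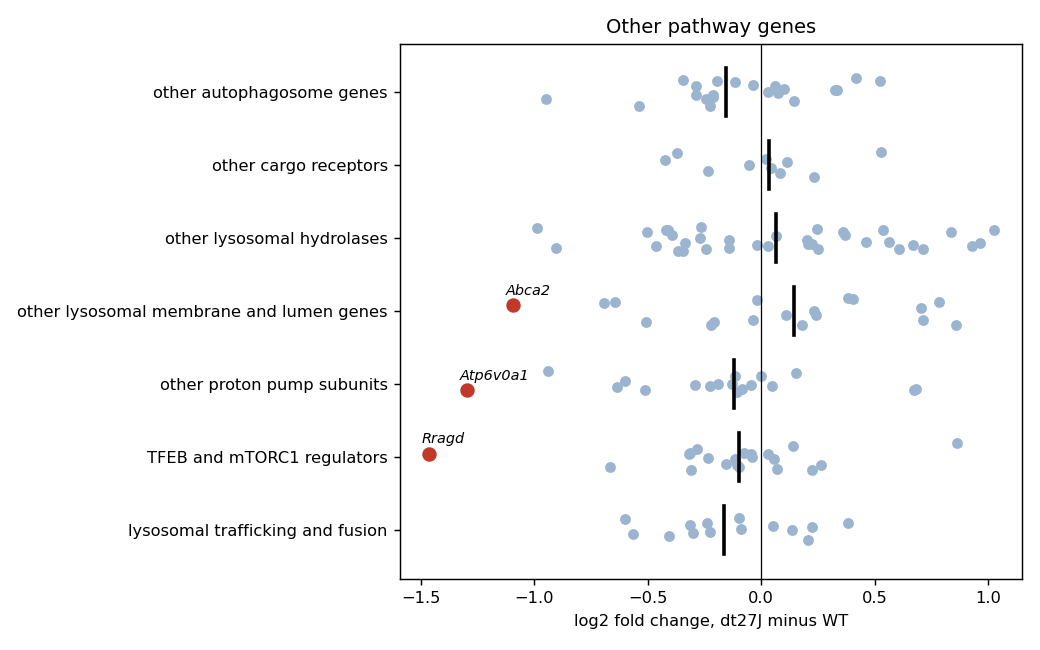
Log2 fold change (x axis, dt27J minus WT) of the other genes of the pathway at their brightest probe, by list; pale points did not pass, red points passed an adjusted p of 0.05, and the black bar is the median of the list. The 3 red points, Abca2, Atp6v0a1 and Rragd, are all negative, and the medians lie between −0.16 and 0.14.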

How the data were processed

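Per the labels, 300 ng of total RNA of each animal was labelled with Cy3 and hybridised to 1 array. Per the submitters' processing notes, Agilent Feature Extraction 10.5.1.1 wrote the deposited scanner output, whose processed signal, per the file headers, is a background-corrected intensity on a linear scale, not scaled between arrays. The values of the authors' deposited series table are log2 and centred on each probe's median (column medians −0.00408 to 0.00527); comparison with the scanner values settled scale and direction, and the normalization behind them stays unknown.

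Here log2 of the processed signal was taken minus the array's 75th percentile (a signal of 369 to 580), control and outlier spots were left out, and spots of a probe were averaged, so that 41086 of 41174 probes kept a value on every array. Testing required the well-above-background flag on each of the 3 arrays of either genotype (26248 probes). Accessions were named through a RefSeq table of GRCm38.p6 (24802 probes); the array's own annotation is older, so no array coordinates are given. limma 3.58.1 in R 4.3.3 was fitted to all 6 arrays with genotype and date (3 residual degrees of freedom, 3.75 from the prior), and p-values were adjusted by Benjamini-Hochberg over all tested probes; the interaction of genotype and date came from a second fit. The number of arrays limits the precision.

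Alternatives were the date term, the replicate number as a block, array-median scaling, quantile normalization, normexp with an offset of 50, the filter on dim probes, the authors' log2 values, array weights and leaving out arrays. The mean spot signal planned for normexp is not among the columns used here, so the median signal stood in, and since 62 local backgrounds lay above 3 times the array's median, a version with these replaced by it was added after seeing the data. Every listed gene was named by its brightest probe with its other probes; in other lists the 3 genes of smallest p and those past the threshold could be named. Manba, Ids and second probes of pathway genes were named after their values were seen. The genes and lists were chosen with earlier results of these data known.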

Additional observations from a re-analysis of the deposited data

How the results depend on the processing

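Over all tested probes 842 passed the threshold. The count was 14 without the date term, 2 with the replicate block, 384 with normexp, 1432 with normexp and high local backgrounds replaced, 8104 with array weights and 6796 without both arrays of the second date; the second normexp version and this last one were chosen after seeing the data. Without the filter on dim probes it was 0 by limma (8484 at an unadjusted p under 0.05), and leaving out 1 array gave 0 to 6796, with 0 without WT 2 (4985 unadjusted) and without dt27J 1 (4475 unadjusted). Leaving out WT 3 or dt27J 3 makes the other array of that date uninformative. The split into higher and lower, 343 and 499, became 537 and 440 with quantile normalization, 455 and 382 with array-median scaling, 614 and 561 with the authors' values and 279 and 105 with normexp.

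Arrays of the same replicate number deviated together at r = 0.22, −0.15 and 0.062, and 2 of the 6 arrays correlated best with their own number in the other genotype, so the numbers were not taken as pairs; the arrays numbered 3 also share the second date and slide. With the replicate block Rragd, Atp6v0a1, Abca2, Manba and Ids missed the threshold too (adjusted p = 0.108 to 0.116), and 2 probes passed over the array. Of the listed genes' 55 probes 1 passed, against 842 of all 26248 tested probes. With array weights 6 passed against 8104 over the array, and with normexp and backgrounds replaced 3 against 1432. With the authors' values 2 passed against 1175, and without the second date 2 against 6796. None of the 55 passed without the date term, without the filter or with the replicate block (7, 12 and 4 unadjusted). Over the array 14, 0 and 2 passed there. Leaving out 1 array gave 0 to 2 of the listed genes' probes, with 0 without WT 1, WT 2 or dt27J 1 (4, 4 and 3 unadjusted). Over the array 1, 0 and 0 probes passed in those. Grn kept its sign in all 17 alternatives and passed in 11. Leaving out WT 3, dt27J 3 or both is the same fit, in which it passed, and was counted each time. Becn1 passed with the authors' values (0.93, adjusted p = 0.0495), with backgrounds replaced (0.88, 0.0396) and with array weights (0.93, 0.0185), and ranged from 0.0185 to 0.265 over its alternatives. Map1lc3a passed with backgrounds replaced (−0.69, 0.0476) and array weights (−0.65, 0.0267), and ranged from 0.0267 to 0.268. The autophagosome minus hydrolase difference stayed negative, from −0.49 to −0.074.

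Small fold changes turned sign. With array weights Ctsb was 0.15, Ctsd 0.16 and Ulk1 0.18. With the authors' values Ctsd was 0.019 and Ulk1 0.036. With array-median scaling Atp6v1h was 0.012, Ctsb 0.056, Ctsd 0.033, Sqstm1 0.012 and Ulk1 0.035. With normexp Ctsb was 0.086, Ctsd 0.13, Lamp2 0.016, Sqstm1 0.079, Tfeb −0.00199, Ulk1 0.15 (0.013 with backgrounds replaced) and Ulk2 0.016. Leaving out 1 array spanned −0.10 to 0.12 for Atg14, −0.12 to 0.23 for Atg4b, −0.73 to 0.41 for Atp6v1h, −0.14 to 0.24 for Ctsb, −0.17 to 0.19 for Ctsd, −0.88 to 0.048 for Psap, −0.13 to 0.024 for Sqstm1, −0.18 to 0.30 for Tfeb, −0.28 to 0.36 for Ulk1 and −0.25 to 0.10 for Ulk2. The cause was not tested.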
